A study of Zea mays with 24 samples.

Results

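A set of 3 peroxidase probes was followed through every array of a cold stress experiment on maize roots. These were MZ00026737 (TC272703, peroxidase), MZ00004711 (BM080031, putative peroxidase) and MZ00026299 (TC272358, putative peroxidase P7X), chosen by these IDs as 3 of the 43393 maize genes with a probe on the array. The products are those the authors gave. The identifiers matched no entry of the maize reference table used here, so that no position in the genome is given.

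Seedlings of 4 maize varieties were raised in the dark under a control regime, with 16 h at 18 °C and 8 h at 12 °C, or in the cold, where the long period was at 12 °C and the short one at 6 °C. The study ranked Picker and PR39B29 as more tolerant of chilling than Fergus and Codisco. The RNA came from primary roots on day 1 post-germination, while the sample labels give day 8 and 6 h for the cooler control period, and the study's methods were followed. RNA of 3 independent biological replicates was hybridised in pairs to 24 two-colour arrays, in 3 loops of 8 arrays, 1 loop for each replicate. Within a loop 4 direct arrays paired cold and control RNA of one variety. The 4 linking arrays set cold RNA against the control RNA of the next variety, in the order Fergus, Picker, PR39B29, Codisco and back to Fergus. Each RNA of a loop was therefore on 2 arrays. Groups of array values hold 3 arrays each.

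Plant peroxidases of the secreted kind are haem enzymes that use hydrogen peroxide to oxidise small phenolic molecules. In the cell wall they couple monolignols into lignin and cross-link other wall phenolics, and they can both use up and release reactive oxygen. Roots express many members of this large gene family, and chilling is known to raise hydrogen peroxide in plant tissue. The product names of the 3 probes do not say which kind of peroxidase each encodes.

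The study designed a primer pair for MZ00026737, shown here because it marks the transcript that the probe stands for. The letters of the 70-mer array probes were not used here. Both primers are 20 bases long, the forward one with 50% and the reverse one with 45% G and C.
MZ00026737 forward primer: agaaggccatggtcaagatg
MZ00026737 reverse primer: gcttgcaggtcatgaacaaa

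All values are log2 ratios of cold over control RNA, so that 1 stands for a doubling. Each member was spotted once per array, and each value is that of a single spot. The direction of the ratios is likely and not settled. The file header gives the ratio as Cy5 over Cy3 and the dye labels place cold RNA in Cy5 on every array. In the titles, however, control RNA comes first for direct arrays and cold RNA for linking arrays. Ratios were read as first over second named RNA and turned to cold over control. If the dye labels are taken literally, all direct arrays change sign and the linking arrays keep theirs. An RNA shared by a direct and a linking array should enter both ratios with the same sign. In title order the median Pearson r of such arrays over 1705 genes was 0.34 for shared control and 0.17 for shared cold RNA. Under the literal reading both signs turn. The dye labels show no swap. Within the direct arrays, as within the linking arrays, a dye effect of a probe and the cold cannot be told apart under either reading. In whole roots, fewer cells of a type and less RNA per cell cannot be told apart either.

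An array held values for 18268 to 43108 genes (median 23251.5), and the SD of its log2 ratios lay between 0.54 and 2.60. In replicate 2 the deposited values of 2 arrays were nearly identical (Pearson r = 0.987 over 22672 genes), those of the PR39B29 direct array and of the array linking Picker cold to PR39B29 control. After the turn they run opposite ways. Most results that rest on them are given with and without them. Levels fitted over the whole loop of replicate 2 are given only with them. Ratios give no level, so that root identity could not be checked from markers.

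The members were chosen with their cold over control values known, so the ratios that follow are a description. MZ00026737 was mostly higher in the cold, on 20 of 24 arrays. Fergus had log2 ratios of 4.34, 3.03 and 2.06 in replicates 1, 2 and 3. Picker had 1.11, 3.80 and 1.78. PR39B29 had 3.07, 3.85 and 2.73. All 9 direct arrays of these 3 varieties were thus above 1. Codisco had 3.71, −2.91 and −0.97, with replicate 1 as high as in the other varieties and both other replicates below 0. The means were 3.14 ± 1.14 in Fergus, 2.23 ± 1.40 in Picker, 3.22 ± 0.57 in PR39B29 and −0.05 ± 3.40 in Codisco (SD, n = 3 each). Without the near-identical array the mean of PR39B29 was 2.90. In PR39B29 the member ranked 15 from the top of 3695 genes by mean log2 ratio, in Fergus 64 of 4706 and in Picker 103 of 4377.

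On the linking arrays MZ00026737 was again higher on 10 of 12. Fergus cold over Picker control gave 3.39, 4.13 and 1.13, and Codisco cold over Fergus control 4.25, 1.21 and 2.09. PR39B29 cold over Codisco control gave 4.35, −3.16 and 5.61. Its array of replicate 2 stood far below the others, and the Codisco control RNA on it was also that of the direct array at −2.91. Picker cold over PR39B29 control gave 0.03, −4.07 and 1.16, with a mean of −0.96 ± 2.75 (SD, n = 3), and 0.59 without the near-identical array. This was the linking group with the lowest mean for the member. Linking ratios also hold the difference between the 2 varieties.

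**Figure D1:**
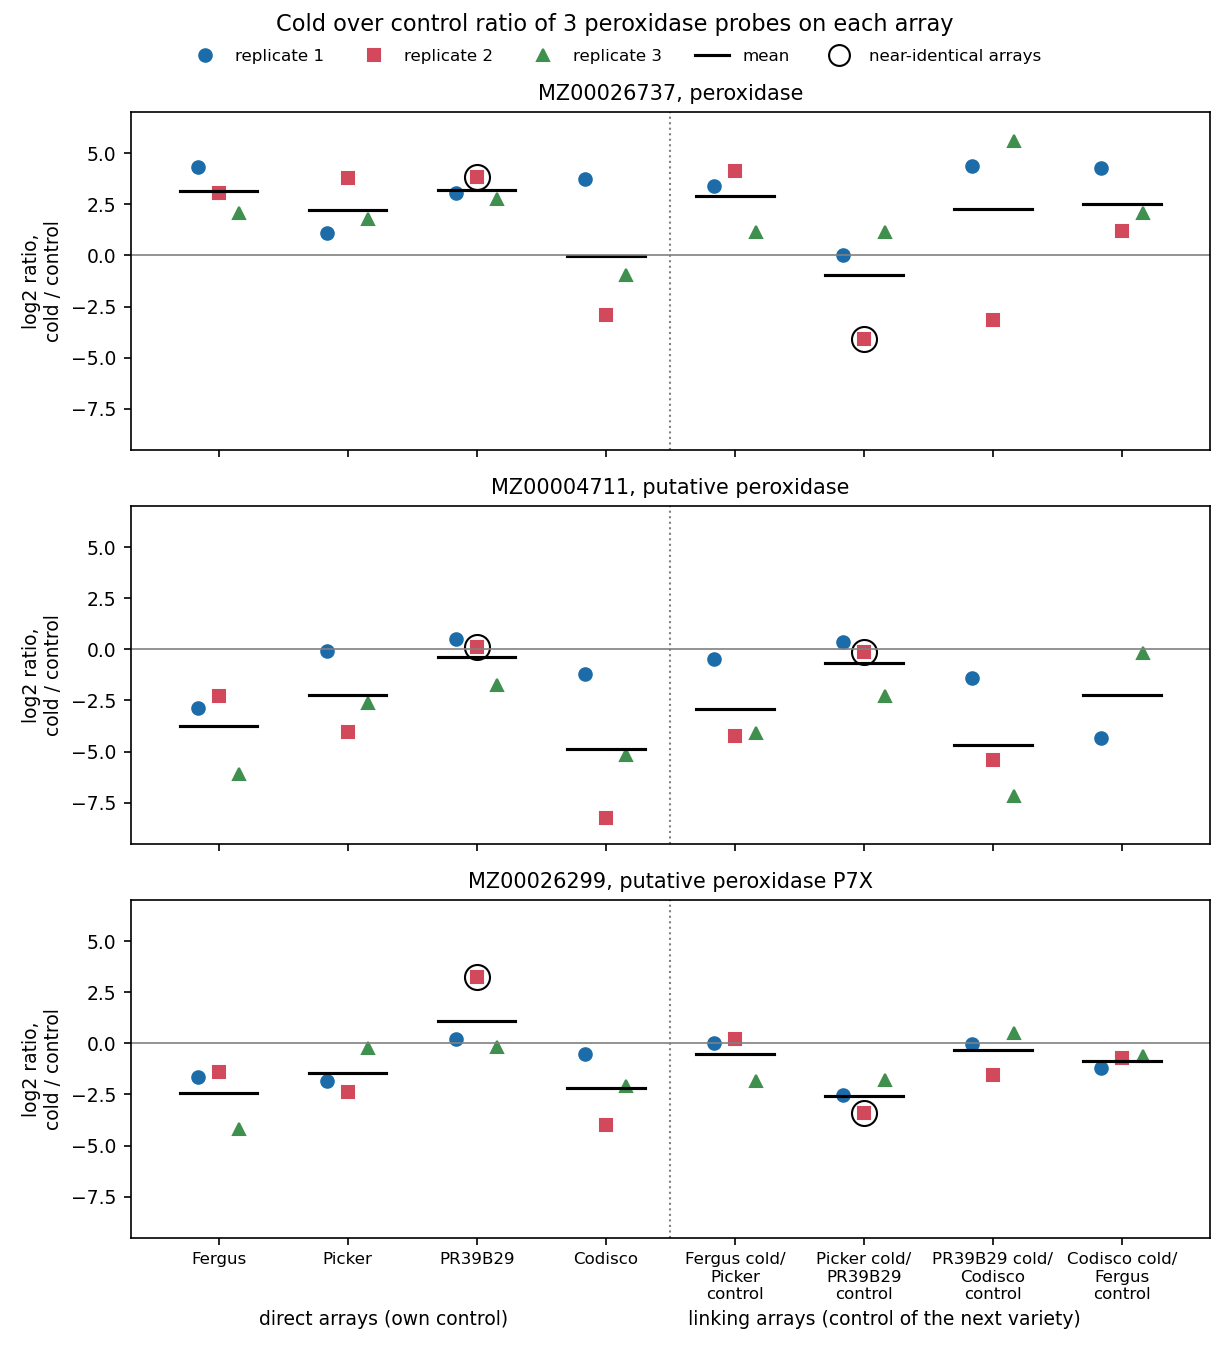
Log2 ratio of cold over control RNA (vertical axis) of each peroxidase probe on the direct arrays (left of the dotted line) and linking arrays (right), with a symbol for each replicate, a bar for the mean and a ring around the near-identical arrays of replicate 2. MZ00026737 lies mostly above 0 and the other members mostly below it, with MZ00026299 in PR39B29 at 0.20, 3.26 and −0.19.

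The putative peroxidase MZ00004711 was lower in the cold on 20 of the 23 arrays with a value. Codisco had the lowest mean of the direct arrays, with values of −1.19, −8.25 and −5.18. Fergus had −2.87, −2.27 and −6.10, and Picker −0.09, −4.03 and −2.63. In these varieties all 9 direct arrays were below 0, though by very unequal amounts. PR39B29 had 0.52, 0.13 and −1.76. The means were −4.87 ± 3.54 in Codisco, −3.75 ± 2.06 in Fergus, −0.37 ± 1.22 in PR39B29 and −2.25 ± 2.00 in Picker (SD, n = 3 each). By its mean it ranked 28 from the bottom of 4610 genes in Codisco and 37 of 4706 in Fergus. Without the near-identical array the mean of PR39B29 was −0.62.

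Linking arrays ending on Codisco control RNA were also among the lowest for MZ00004711, at −1.41, −5.41 and −7.16 with PR39B29 cold RNA. Those ending on Picker control RNA gave −0.49, −4.25 and −4.09, and those ending on PR39B29 control RNA 0.35, −0.14 and −2.28. With Fergus control RNA, Codisco cold gave −4.31 and −0.17, and replicate 2 had no value. All 3 arrays with a value above 0 carried PR39B29 control RNA.

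The putative peroxidase P7X, MZ00026299, was lower in the cold on 19 of 24 arrays, by smaller amounts. Fergus had −1.63, −1.41 and −4.21. Picker had −1.83, −2.39 and −0.21, and Codisco −0.54, −3.98 and −2.08. PR39B29 stood apart with 0.20, 3.26 and −0.19, of which the high value is that of the near-identical array. The means were −2.42 ± 1.56 in Fergus, −1.48 ± 1.13 in Picker, −2.20 ± 1.73 in Codisco and 1.09 ± 1.89 in PR39B29 (SD, n = 3 each). Without that array the mean of PR39B29 was 0.00.

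The linking arrays gave MZ00026299 a different order. Picker cold over PR39B29 control had the lowest mean, with values of −2.54, −3.42 and −1.81, and this mean ranked 14 from the bottom of 3433 genes. Without the near-identical array that mean was −2.18, against −2.59 ± 0.81 with it (SD, n = 3). Codisco cold over Fergus control gave −1.23, −0.72 and −0.61, the tightest group of the member. Fergus cold over Picker control gave 0.03, 0.20 and −1.86, and PR39B29 cold over Codisco control −0.03, −1.54 and 0.52, both spread around 0.

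Within single varieties limma called 1 of the 3 members at an adjusted p under 0.05, MZ00026737 in Fergus, where 4.06% of all genes tested were called. No member was called in Picker (0.297% of genes called), in PR39B29 (0%) or in Codisco (0%), where 3, 1 and 2 members had an unadjusted p under 0.05, as did 1454 of 4377, 1018 of 3695 and 573 of 4610 genes. With the near-identical array left out, MZ00026737 was called in PR39B29 as well (2.90, adjusted p = 0.0428 from limma, with 1.32% of genes called), in a fit that rests on 2 arrays of that variety. Over the 4 varieties together all 3 members were called, 1 higher and 2 lower, with 52.4% of 2546 genes called. These contrasts chose the members, and nothing is read from these counts. The means over the 4 varieties were 2.13 (standard error 0.47) for MZ00026737, −2.81 (0.56) for MZ00004711 and −1.25 (0.40) for MZ00026299. They were 2.06, −2.87 and −1.52 without the near-identical arrays.

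The members were compared with each other on the same arrays. MZ00026737 had a higher ratio than MZ00004711 on all 12 direct arrays, by 1.20 to 8.16, and on 21 of 23 arrays in all. It was above MZ00026299 on all 12 direct arrays too, by 0.59 to 6.28, and on 22 of 24 in all. The choice of 1 rising and 2 falling probes favours this order. Over 24 arrays the ratios of MZ00026737 and MZ00026299 had Pearson r = 0.60 and Spearman rho = 0.66, so that both were relatively high or low on the same arrays although one lay above 0 and the other below. That r was 0.57 without the near-identical arrays, and under the literal reading of the dyes it was 0.03. MZ00004711 had r = 0.12 with MZ00026737 and 0.38 with MZ00026299 over 23 arrays, and 0.25 and 0.41 without the near-identical arrays. On the 12 direct arrays alone these were 0.66 and 0.80, and on the 11 linking arrays −0.30 and −0.39. Arrays of a loop share RNA, and these correlations carry no p.

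Whether the response differed between varieties was tested with limma on the 12 direct arrays. For the members it is not independent of their choice, since values of single varieties chose them. No member passed the F test over the 4 varieties (adjusted p = 0.481 for MZ00026737, 0.476 for MZ00004711 and 0.476 for MZ00026299), and 1 of 3 had an unadjusted p under 0.05. None of the 2546 genes passed it (0%), with 252 at an unadjusted p under 0.05. Among the 6 pairs of varieties, all 3 members had an unadjusted p under 0.05 for PR39B29 against Codisco, as did 402 of the 2546 genes. Their differences were 3.27 (standard error 1.34) for MZ00026737, 4.50 (1.58) for MZ00004711 and 3.29 (1.14) for MZ00026299, each with an adjusted p of 0.305 from limma. PR39B29 was the higher variety in all 3 cases. Without the near-identical arrays the differences were 2.96, 4.25 and 2.20 in the same order (adjusted p = 0.590 each), with only MZ00004711 still at an unadjusted p under 0.05 (170 of 2656 genes), and the F test gave an adjusted p of 0.837 for each member. The response of MZ00026299 in Fergus minus that in PR39B29 was −3.51 (standard error 1.14, adjusted p = 0.208 from limma), which did not pass the threshold, and −2.42 without those arrays (adjusted p = 0.521).

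The loop also allows varieties to be compared under one regime. A direct array and a linking array that share the cold RNA differ only by their control RNA. The same holds for arrays that share the control RNA, whose difference gives the cold RNA of the next variety over that of the variety before it. The differences, called steps here, were tested with limma over 1705 genes with values on all 24 arrays. Each step holds a direct array whose value bore on the choice of members, so that its p-value is not independent of that choice. A dye effect of a probe cancels in a step if the dye labels are literal. If the title order is the dye order, as read here, it enters the direct and the linking array with opposite signs and stays in the step. MZ00004711 lacks 1 array, and its steps come from a fit added after the data were seen that allows a missing value.

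Under the cold regime PR39B29 lay above Picker for all members in all 3 replicates. In replicate 2, however, both arrays of this step are the near-identical ones, which carry opposite signs after the turn. The value there follows from 1 shared reading and does not bear on the varieties, so that only replicates 1 and 3 do. For MZ00026299 the step was 2.74, 6.68 and 1.62 in replicates 1, 2 and 3. Its mean of 3.68 (standard error 0.98, adjusted p = 0.0426 from limma) passed the threshold, where 5.69% of genes did. The largest value rests on both near-identical arrays. Without them the mean was 2.18 (adjusted p = 0.463 from limma, with 0 genes called), so that the call depends on these arrays. It was also lost under the literal reading of the dyes (1.5, adjusted p = 0.998), without replicate 1 (adjusted p = 0.202), without replicate 2 (2.18, adjusted p = 0.452), without the variance filter (adjusted p = 0.0566) and with a missing array allowed (adjusted p = 0.0839). For MZ00026737 the same step was 3.05, 7.92 and 1.57, with a mean of 4.18 (standard error 1.20, adjusted p = 0.0511 from limma), and with the replicate number as a block it was called (adjusted p = 0.0330). It was 2.31 without the near-identical arrays (adjusted p = 0.519) and −2.26 under the literal reading (adjusted p = 0.998). For MZ00004711 it was 0.17, 0.27 and 0.52, with a mean of 0.32 ± 0.18 (SD, n = 3, adjusted p = 0.882 from limma). The replicates of that step lay close together and close to 0, and its mean was 0.35 without the near-identical arrays.

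**Figure D2:**
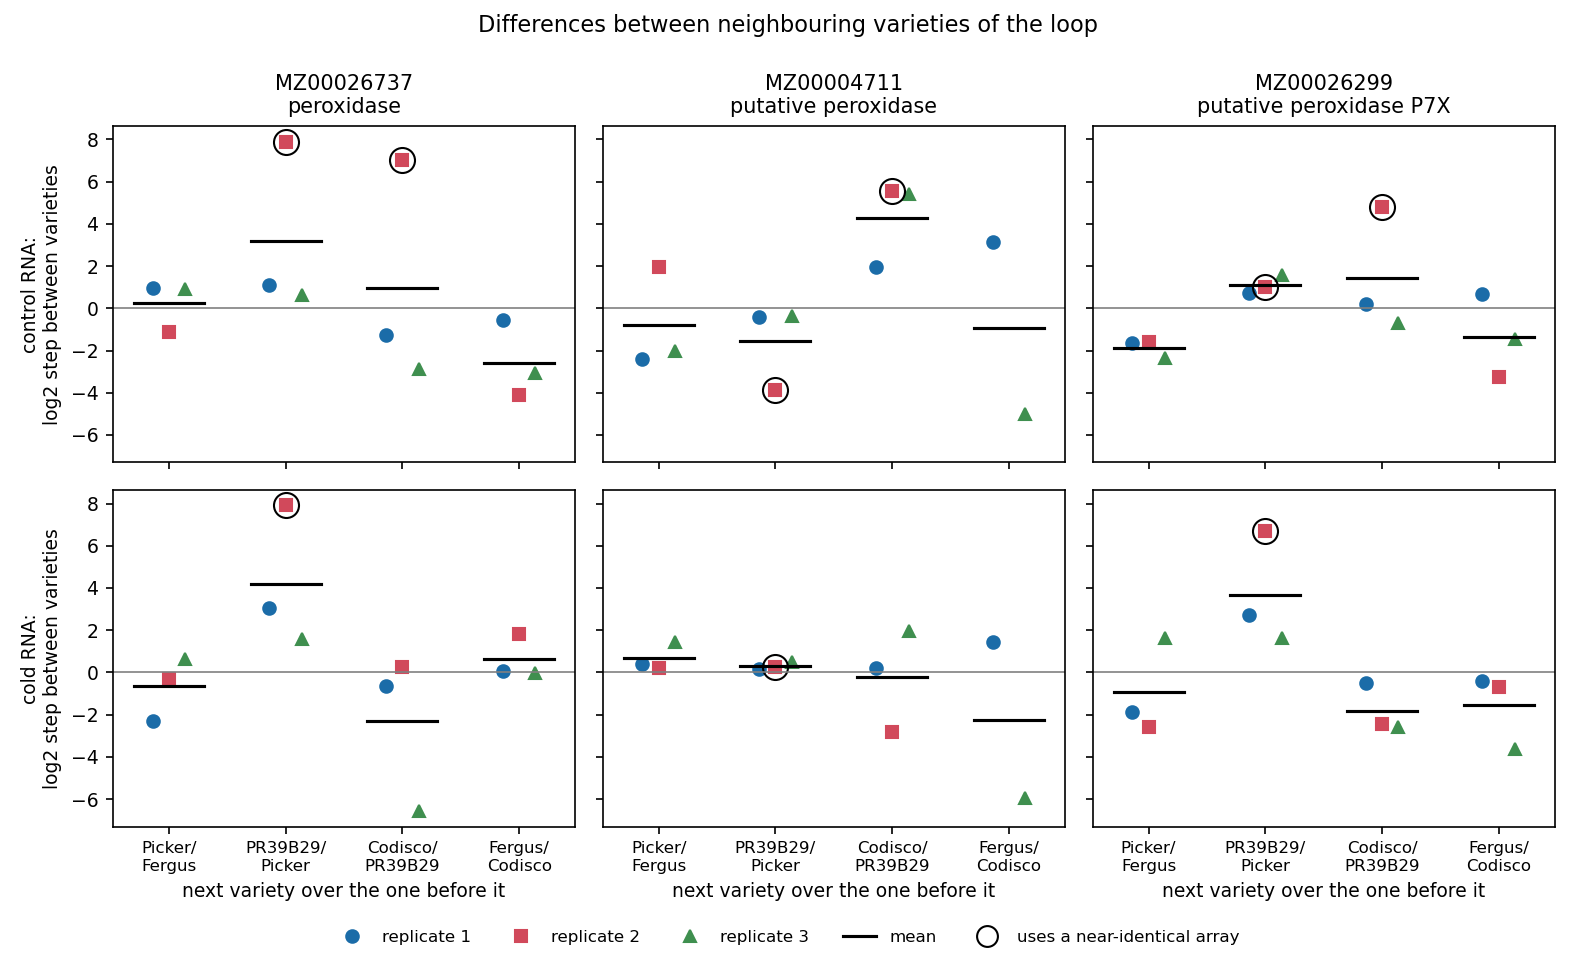
Log2 difference between neighbouring varieties of the loop (vertical axis) in control RNA (top) and cold RNA (bottom) for each peroxidase probe, with a symbol for each replicate, a bar for the mean and a ring around values that use a near-identical array. The cold step from Picker to PR39B29 is above 0 in all replicates of all members, and its values of replicate 2, 7.92 for MZ00026737 and 6.68 for MZ00026299, are the ringed ones. These come from near-identical arrays with opposite signs and do not bear on the varieties.

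The remaining cold steps did not pass the threshold for any member, though under the literal reading that of MZ00004711 from PR39B29 to Codisco did (9.53, adjusted p = 0.00819 from limma). If the title order is right, that value adds a direct and a linking ratio and is no difference between varieties. From PR39B29 to Codisco MZ00026299 was at −0.51, −2.44 and −2.60 (adjusted p = 0.343 from limma, with 0.176% of genes called), lower in all 3 replicates. From Codisco to Fergus it was again lower in all 3, at −0.40, −0.69 and −3.61, with 0% of genes called. MZ00004711 was above 0 in all 3 replicates from Fergus to Picker, at 0.40, 0.22 and 1.46 (adjusted p = 1.00 from limma). MZ00026737 had steps of both signs in each of these 3 comparisons.

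Under the control regime the largest step of a member was that of MZ00004711 from PR39B29 to Codisco, at 1.93, 5.54 and 5.40 in the 3 replicates. Its mean was 4.29 (standard error 1.37), with an adjusted p of 0.389 from limma (0.00750 unadjusted), and 3.67 without the near-identical arrays. Codisco control RNA was thus the higher in 3 of 3 replicates, and the step did not pass the threshold. MZ00026299 was lower in Picker than in Fergus control RNA in all 3 replicates, at −1.66, −1.62 and −2.36, and lower in Picker than in PR39B29 in all 3, by 0.71, 1.03 and 1.60. These 2 steps had the smallest spread of its control steps, 0.41 and 0.45 (SD, n = 3), and adjusted p-values of 1.00 and 0.80 from limma. Replicate 2 of the step between Picker and PR39B29 rests on a near-identical array, and the mean was 1.11 with it and 1.15 without it. MZ00026737 was lower in Fergus than in Codisco control RNA in all 3 replicates, at −0.54, −4.12 and −3.06 (adjusted p = 0.395). Its step from Picker to PR39B29 was 1.08, 7.87 and 0.62, again with the value of replicate 2 on a near-identical array, and its mean fell from 3.19 to 0.85 without it. No control step was called for any of the 1705 genes (0% in each of the 4 steps, with 36 to 247 genes at an unadjusted p under 0.05), and the members had no unadjusted p under 0.05 in the fit of genes with all arrays. This rests on the reading of the dyes. If the title order is right, a step taken with the literal signs adds a direct and a linking ratio. It then holds the cold response and is no measure of a control difference between varieties. Under the literal reading 407 genes were called from Fergus to Picker, 531 from PR39B29 to Codisco and 264 from Codisco to Fergus. MZ00026737 was then called for the first 2 of these steps (adjusted p = 0.0227 and 0.0268 from limma), MZ00004711 for the same ones (0.0133 and 0.0352), and MZ00026299 from Fergus to Picker (0.0483).

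For a view of all 8 RNAs of a loop together, each RNA was given a log2 level relative to the mean of the loop, by least squares over its 8 arrays. In replicate 2 MZ00004711 had no value on the array linking Codisco cold to Fergus control. Its levels there follow from the remaining arrays, both near-identical ones among them, with no spare array to check them. For MZ00026737 PR39B29 cold RNA was the highest of the cold RNAs in every replicate, at 2.60, 2.97 and 4.12. Fergus (0.62 ± 1.17), Codisco (0.45 ± 1.67) and Picker (−0.49 ± 1.99, SD, n = 3 each) followed and overlapped each other. None of their 9 values reached those of PR39B29. Among the control RNAs Codisco led only through replicate 2, where it was at 4.93 against −1.78 and −0.95 in the others, and Picker (−2.49 ± 2.30) and Fergus (−2.29 ± 0.66) were lowest and overlapped.

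For MZ00004711 the order was clearer among the control RNAs. Codisco was at 3.61 ± 2.88, Fergus at 1.75 ± 1.08, Picker at 0.93 ± 1.67 and PR39B29 at −0.65 ± 0.61 (SD, n = 3 each). The 3 PR39B29 values, −0.98, −1.03 and 0.05, lay below all those of Fergus and Codisco and overlapped those of Picker. The cold RNAs were at −1.04 ± 0.38 in PR39B29, −1.27 ± 2.38 in Codisco and −1.33 ± 1.07 in Picker (SD, n = 3 each), with Fergus lowest at −4.42 to −0.20, and all of them overlapped. In replicate 1 the cold RNAs spanned 0.88 and the control RNAs 3.94. In replicate 2 they spanned 2.84 and 5.54, and in replicate 3 they spanned 5.44 and 6.04, so that the control RNAs had the wider range each time.

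MZ00026299 again had PR39B29 as the highest cold RNA in every replicate, at 0.56, 2.56 and 1.58. Codisco came next at −0.11 ± 0.17, with 3 values close together, before Fergus (−1.51 ± 1.46) and Picker (−2.28 ± 1.56, SD, n = 3 each), which overlapped. Replicates 1 and 3, which hold no near-identical array, gave PR39B29 the same place for this member and for MZ00026737. Among the control RNAs Picker was lowest at −0.89 ± 0.51 and Codisco highest at 2.00 ± 1.76. Here the cold RNAs had the wider range in all 3 replicates, 2.75 against 1.66, 6.44 against 5.35 and 4.73 against 2.36. The levels of a loop are fitted together and sum to 0, and the order carries no test. How many other genes had PR39B29 as the highest cold RNA was not counted, so that this place is not shown to be particular to the members. In the cold step PR39B29 over Picker, 87 of the 97 genes called were higher and 10 lower, with 0 called without the near-identical arrays.

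**Figure D3:**
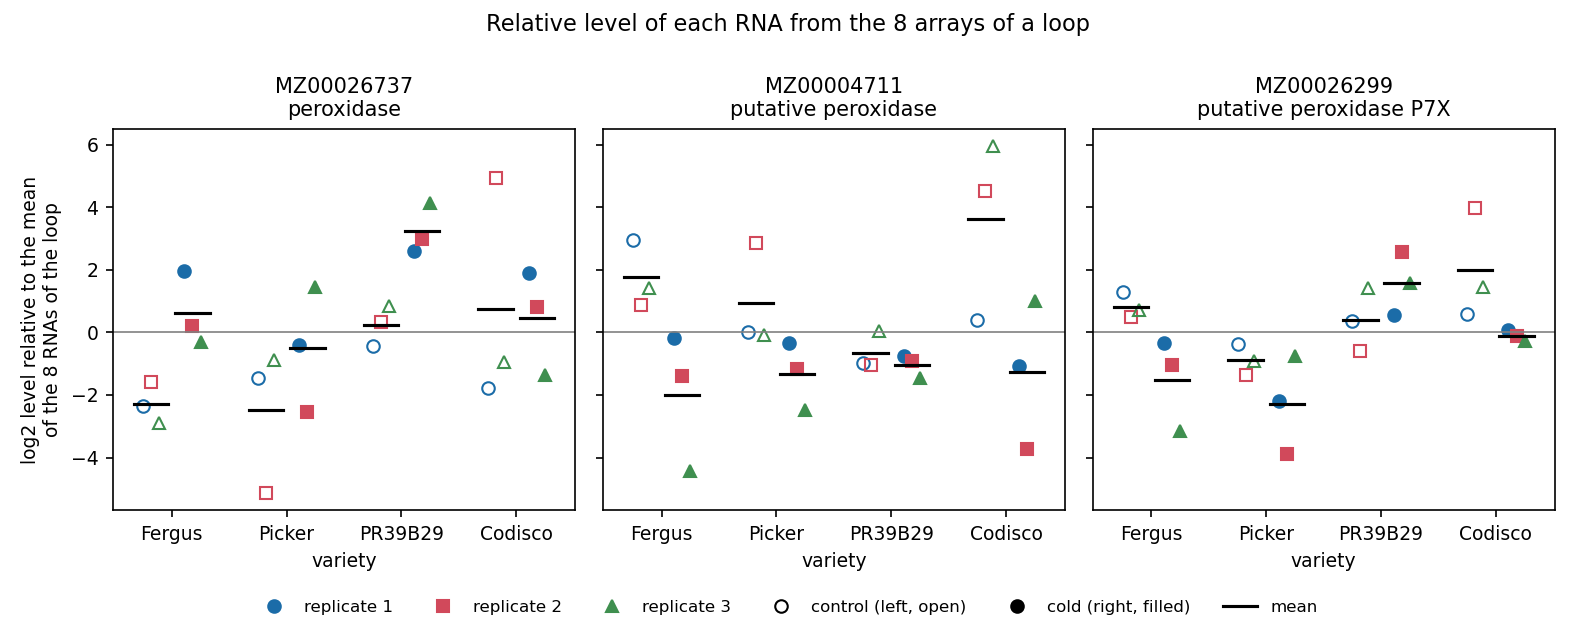
Log2 level of each RNA relative to the mean of the 8 RNAs of its loop (vertical axis) by variety, for control RNA (open symbols) and cold RNA (filled symbols), with a symbol shape for each replicate and a bar for the mean. PR39B29 cold RNA is highest among the cold RNAs for MZ00026737 and MZ00026299, and Codisco control RNA has the highest mean of the control RNAs for all members.

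The 8 ratios of a loop, added in title order, come to 0 but for error and a dye effect common to them. For MZ00026299 the sum was 0.04, −0.95 and 2.94 in replicates 1, 2 and 3. For MZ00026737 it was −0.21, −9.66 and 4.39, so that its loop of replicate 2, which holds the near-identical arrays, closed worst. For MZ00004711 it was −2.25 and 1.97 in replicates 1 and 3. The median absolute sum over the genes that passed the filter and had 8 values was 1.19, 3.01 and 1.38 in the 3 replicates.

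Arrays that share an RNA were then set against each other. For MZ00004711 direct and linking arrays with the same PR39B29 control RNA gave values of 0.52 and 0.35, 0.13 and −0.14, and −1.76 and −2.28 in replicates 1, 2 and 3, with the near-identical arrays as the pair of replicate 2. Picker control RNA gave −0.09 and −0.49, −4.03 and −4.25, and −2.63 and −4.09. Codisco control RNA gave −1.19 and −1.41, −8.25 and −5.41, and −5.18 and −7.16. Fergus control RNA gave −2.87 and −4.31 in replicate 1, and −6.10 and −0.17 in replicate 3, the pair farthest apart. The pairs thus ranged from close to well apart, and those of PR39B29 in replicates 1 and 3 lay close. The near-identical arrays of replicate 2 have opposite signs and lie close only where the reading is small. For MZ00026737 the same pair stood at 3.85 and −4.07. Over the 11 pairs Pearson r was 0.64 and Spearman rho 0.72, and the median absolute difference was 0.52. Over 1891 genes the median r was 0.38 and the median absolute difference 0.87. Leaving the near-identical arrays out gave the member r = 0.59 and a median absolute difference of 0.98 over 10 pairs, against 0.45 and 0.82 over 1953 genes. By the median difference of the values as deposited, its pairs were thus closer than those of the median gene only with these arrays. With the arrays centred and scaled they were closer without them too, at 0.60 against 0.77. Pairs with the same cold RNA differed more for this member, by a median of 2.38, with r = −0.15 over 11 pairs (2.01 and 0.064 over 9 pairs with those arrays left out). The difference between shared control and shared cold RNA was not tested.

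For MZ00026299 pairs with the same control RNA had r = −0.65 over 12 pairs, and 99.9% of 1705 genes had a higher r. Without the near-identical arrays r was −0.38 over 11 pairs. Pairs with the same cold RNA had r = 0.15. MZ00026737 had r = 0.18 for the same control RNA and 0.00 for the same cold RNA over 12 pairs, and 0.42 and 0.58 without the near-identical arrays. The median over genes was 0.34 for shared control and 0.17 for shared cold RNA with these arrays, and 0.41 and 0.27 without them. The pairs come from 4 varieties and 3 loops and are not independent, and under the literal reading of the dyes the sign of each r turns.

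**Figure D4:**
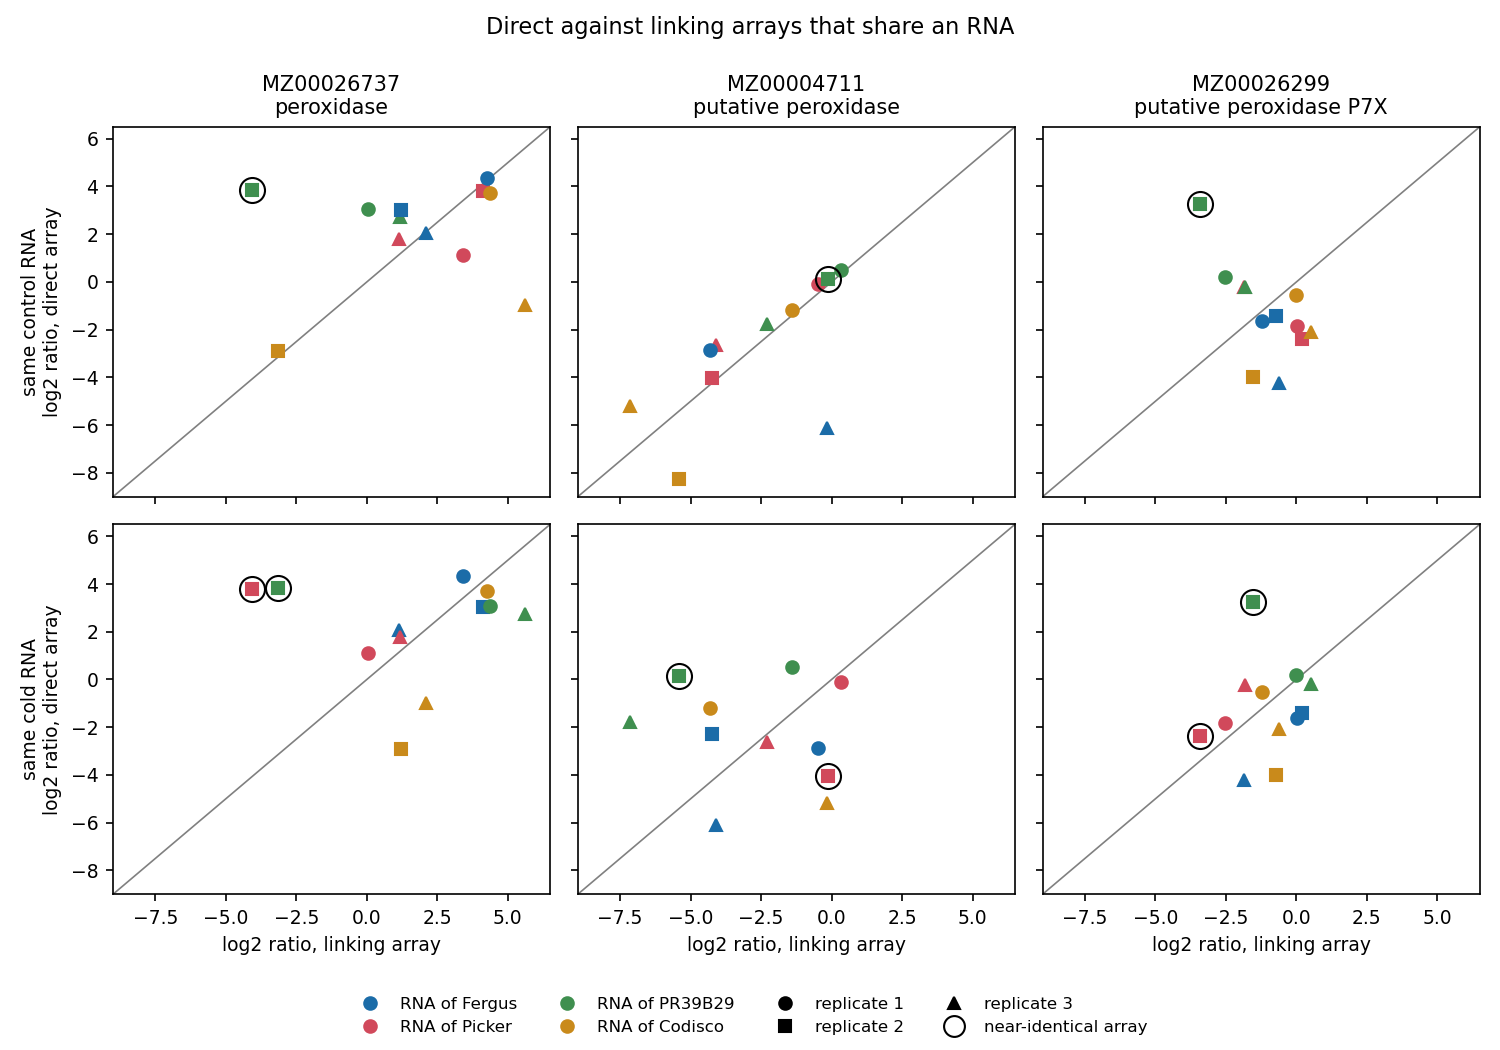
Log2 ratio of cold over control on a direct array (vertical axis) against that on the linking array of the same replicate with the same control RNA (top) or the same cold RNA (bottom), coloured by the variety of the shared RNA, with a symbol for each replicate and a ring around near-identical arrays. The grey line marks equal values, from which MZ00004711 differs for shared control RNA by a median of 0.52, or 0.98 with the ringed arrays left out.

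The probes with the most similar pattern over the arrays were looked up for each member. For MZ00026737 these were MZ00037365 (r = 0.93), MZ00017492 (0.89) and MZ00038887 (0.89) of 9457 probes over 24 arrays, and the most opposite was MZ00022690 (−0.84). For MZ00004711 they were MZ00016384 (r = 0.95), MZ00037812 (0.95) and MZ00041588 (0.93) of 9861 probes over 23 arrays, and MZ00014065 was most opposite (−0.92). For MZ00026299 they were MZ00037039 (r = 0.89), MZ00025711 (0.82) and MZ00023613 (0.82), and MZ00017639 was most opposite (−0.87). Without the near-identical arrays the r of these probes, in the order named, were 0.92, 0.87, 0.85 and −0.79 for MZ00026737. They were 0.95, 0.94, 0.92 and −0.91 for MZ00004711, and 0.85, 0.81, 0.82 and −0.90 for MZ00026299. Of these probes only MZ00041588 has a product in the study's tables, a rice entry similar to an Arabidopsis protein of unknown function. MZ00016384 and MZ00041588 were each lower in the cold on 11 of 12 direct arrays and MZ00037812 on 9, against 10 for MZ00004711 itself. The mean ratio of MZ00037365 over the 12 direct arrays was 0.94, below the 2.13 of MZ00026737 whose pattern it followed.

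Other steps of phenolic supply were read from a list of 3 products. Cinnamoyl CoA reductase (MZ00015899), which makes the aldehydes that become monolignols, had ratios above 0 on each of the 12 direct arrays, at 0.13 to 4.23 (median 1.65). Its mean was largest in PR39B29, 3.01 ± 1.24 (SD, n = 3), given only with the near-identical array. The other means of this enzyme were 1.61 ± 0.72 in Fergus, 1.08 ± 0.84 in Picker and 1.43 ± 0.38 in Codisco (SD, n = 3 each). Its pattern over the 24 arrays had r = 0.71 with MZ00026737, higher than that of 98.4% of probes, and r = −0.29 with MZ00004711. The r with MZ00026737 was 0.59 without the near-identical arrays and 0.29 on the 12 direct arrays alone. Arogenate dehydrogenase (MZ00029584), an enzyme of tyrosine synthesis, was higher on 9 of 12 direct arrays (median 0.84). O-methyltransferase ZRP4 (MZ00017851), a methylating enzyme of maize roots, was higher on 8 of its 9 values (median 2.06). Both products tested over the 4 varieties, cinnamoyl CoA reductase and arogenate dehydrogenase, passed the threshold as higher (2 of 2, with 52.4% of all genes called).

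Of the 4 defence products of a second list, 2 were tested over the 4 varieties and both passed as lower, where 52.4% of all genes were called. The putative chitinase MZ00027910 was lower on all 12 direct arrays, and pathogenesis related protein-1 (MZ00004486) on 11 of 12. Among 3 root tissue products, the root-specific protein RCc3 (MZ00015009) was higher on all 12 direct arrays (0.58 to 6.66), and that of the root cap, root cap protein 2 (MZ00032161), gave values below 0 on 11 of 12 (−6.82 to 1.08). The probable lipid transfer protein MZ00026029 was lower on all 11 of its values (median −1.65) and was not tested over the 4 varieties. RCc3 and root cap protein 2 each passed the threshold over the 4 varieties, 1 higher and 1 lower, with 52.4% of all genes called. RCc3 had its smallest mean ratio in PR39B29, at 1.74 ± 1.02 (SD, n = 3), and root cap protein 2 was at −0.33 ± 1.45 there (SD, n = 3). Both means hold the near-identical array and are given only with it. The pattern of RCc3 had r = −0.56 with MZ00004711 over 23 arrays, and −0.25 with MZ00026299 and 0.19 with MZ00026737 over 24. Without the near-identical arrays these were −0.55, −0.63 and −0.12. On the 12 direct arrays alone they were −0.76, −0.67 and −0.57. The sign turned for MZ00026737 both times. The part of these root products in the peroxidase values was not tested. The products of the 3 lists were picked by the study on these arrays and are no independent evidence of a direction.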

How the data were processed

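Maize root RNA was measured on 24 two-colour arrays. The authors deposited log2 ratios of the 2 channels for each spot (M-values), made with CARMAweb, which runs limma (versions not given in the sources used here), from GenePix scans: background by the minimum method, print-tip loess, scaling between arrays and removal of bad spots. A second deposited table gave spot positions, blocks, rows and columns (other units), and probe names. It also holds 96 columns of values named by slide, which match no sample label and were not used. The number of arrays limits the precision, and how far a spot lay above background is unknown.

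Spots of a probe were averaged. Genes were filtered to the 40% that varied most over the 24 arrays, 16945 of 42364 with 2 or more values. All 3 members passed and ranked 3518 (MZ00026737), 2811 (MZ00004711) and 6664 (MZ00026299) by variance. Moderated tests of limma (version 3.58.1, with R 4.3.3), with Benjamini and Hochberg adjustment over all genes tested and a threshold of 0.05, were run on the 3 direct arrays of a variety, on the 12 direct arrays, and on the 4 control and 4 cold steps. The steps were differences of 2 arrays of a loop that share an RNA. Neighbouring steps share arrays. The functions were tested on simulated loops. Values were summarised in Python 3.11.15 with pandas 2.3.3 and numpy 2.4.6.

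Named were the 3 members, the 3 probes most like and the 1 probe least like each over the arrays, and 10 products in 3 lists. No probe name matched a peroxidase, catalase or superoxide dismutase symbol of the reference table (0 of 43393). The members and lists were chosen with earlier results of these data known. The alternatives were no variance filter or one over the 12 direct arrays, arrays centred and scaled, each replicate left out, the replicate number as a block, the near-identical arrays left out, medians, least squares within a loop, a rank correlation, the 12 direct arrays alone for similarity, and the literal reading of the dyes. A missing array allowed was added after seeing the data. The product of a probe comes from the study's tables.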

Additional observations from a re-analysis of the deposited data

How the results depend on the processing

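The 3 replicates of a group limit what these results can bear, and the cause of the changes below was not tested. With the dye labels read literally the mean of MZ00026737 in Fergus became −3.14, and the means over the 4 varieties became −2.13 for MZ00026737, 2.81 for MZ00004711 and 1.25 for MZ00026299. Steps between varieties mix both kinds of array. If the title order is right, the literal signs make a step add a direct and a linking ratio, which is no difference between varieties. Under the literal reading the steps of MZ00026737 turned to −6.03 (control Picker over Fergus), −1.27 (control PR39B29 over Picker), −5.49 (control Codisco over PR39B29), −2.26 (cold PR39B29 over Picker) and −5.66 (cold Fergus over Codisco). Those of MZ00004711 turned to 6.69 (control Picker over Fergus), 2.94 (control PR39B29 over Picker), 5.42 (control Fergus over Codisco), 9.53 (cold Codisco over PR39B29) and 6.72 (cold Fergus over Codisco). Those of MZ00026299 turned to 2.96 (control Picker over Fergus), −0.74 (control Codisco over PR39B29), 3.05 (control Fergus over Codisco), 2.02 (cold Picker over Fergus), 2.55 (cold Codisco over PR39B29) and 3.27 (cold Fergus over Codisco). Without the near-identical arrays the control step from PR39B29 to Codisco was −2.08 for MZ00026737 and −0.24 for MZ00026299. With the arrays centred and scaled the steps of MZ00026737 were −0.017 (control Picker over Fergus) and −0.055 (cold Fergus over Codisco).

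Leaving out all arrays of each replicate in turn gave 0 to 159 called genes in Fergus (191 with all), 0 to 1514 in Picker (13), 0 to 2625 in PR39B29 (0), 0 to 53 in Codisco (0), 351 to 2764 over the 4 varieties (1334), 0 to 225 in the cold step PR39B29 over Picker (97) and 0 in the cold step Codisco over PR39B29 (3). Such fits rest on 2 arrays a group. The steps of MZ00026737 then ranged from −0.088 to 0.94 (control Picker over Fergus), −2.08 to 2.87 (control Codisco over PR39B29) and −1.31 to 0.16 (cold Picker over Fergus), that of MZ00026299 from −0.24 to 2.51 (control Codisco over PR39B29), and that of MZ00004711 was 1.11 (cold Codisco over PR39B29, without replicate 2, the only one of these fits that could be made for it). The means of MZ00026299 and MZ00004711 over the 4 varieties were no longer called without replicate 3 (adjusted p = 0.163 and 0.0761 from limma), and that of MZ00026299 not without replicate 2 (adjusted p = 0.0515).

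Without the variance filter 423 genes were called in Fergus, 0 in Picker, 3566 over the 4 varieties, 6 in the control step Codisco over PR39B29, 150 in the cold step PR39B29 over Picker and 10 in the cold step Codisco over PR39B29. With the filter over the 12 direct arrays there were 646 over the 4 varieties, 1 in the cold step Picker over Fergus and 6 in the cold step Codisco over PR39B29. With the arrays centred and scaled there were 307 in Fergus, 86 in Picker, 12 in the control step Fergus over Codisco, 1 in the cold step Picker over Fergus, 814 in the cold step PR39B29 over Picker, 0 in the cold step Codisco over PR39B29 and 1 in the cold step Fergus over Codisco. Without the near-identical arrays there were 54 in PR39B29, 1 in the control step PR39B29 over Picker, 0 in the cold step PR39B29 over Picker and 9 in the cold step Codisco over PR39B29. Under the literal reading, counted after seeing the data, there were 407 in the control step Picker over Fergus, 531 in Codisco over PR39B29 and 264 in Fergus over Codisco (0 in each otherwise), and 12 in the cold step Picker over Fergus, 0 in PR39B29 over Picker, 589 in Codisco over PR39B29 and 8 in Fergus over Codisco. With a missing array allowed, chosen after seeing the data, there were 1 in the control step Picker over Fergus and 0 in the cold step PR39B29 over Picker. Same-numbered arrays belong to one loop, but of 18 pairs of same-numbered direct arrays only 11 had deviations correlated above 0.1 (−0.42 to 0.49, with 0.33 to 0.49 in replicate 1), and the block was kept as an alternative. The lowest values, −0.42 with Codisco and −0.23 with Picker, are of pairs that hold the near-identical direct array of PR39B29. With the replicate number as a block 1 gene was called in the cold step Picker over Fergus, against 0, and 1571 over the 4 varieties. Under the block the cold step PR39B29 over Picker of MZ00026737 had an adjusted p of 0.0330 from limma, and it was also called with the arrays centred and scaled (5.48, adjusted p = 0.00669), with the filter over the 12 direct arrays (adjusted p = 0.0423) and without replicate 3 (5.48, adjusted p = 0.00958). That of MZ00026299 kept its call under the block (adjusted p = 0.0460) and with the arrays centred and scaled (4.88, adjusted p = 0.00414).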
